A study of Ciona robusta with 6 samples.

Results

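A set of genes of FGF, ephrin and Ets signaling was followed in sorted anterior neural plate (ANP) cells of *Ciona robusta*, a tunicate whose embryo has few cells and fixed lineages. They were chosen by gene model and are 6 of the 16526 KH2012 models in the count tables: the ligands *Fgf9/16/20* (KH2012:KH.C2.125) and *Fgf8/17/18* (KH2012:KH.C5.5), the ephrin ligand *Efna.d* (KH2012:KH.C3.716), a homolog of the human ephrin receptor gene EPHA3 (KH2012:KH.C7.369), and the Ets family transcription factors *Ets1/2* (KH2012:KH.C10.113) and *Elk* (KH2012:KH.C8.247). The *Lhx3/4* cells carried *Dmrt>Lhx3/4* beside the reporter *Dmrt>GFP* and so misexpressed the homeobox factor *Lhx3/4* in the ANP lineage, and the control cells carried *Dmrt>GFP* alone, both brought in by electroporation. Both groups are labelled wildtype in genotype, both were raised at 18°C, and both were sorted on GFP after dissociation, with 3 polyA RNA libraries each. The *Dmrt* enhancer drives both transgenes, and electroporated plasmids are taken up by only some cells of an embryo, so the GFP sort keeps the cells that carry the reporter. The comparison asks how a factor of the cardiopharyngeal lineage changes the response of another FGF-dependent lineage, and here what it does to the genes of the signal itself.

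FGF ligands bind receptor tyrosine kinases on neighbouring cells and switch on the Ras and MapK cascade, which phosphorylates Ets factors in the nucleus. In ascidian embryos *Fgf9/16/20* is the early inducer of neural tissue and *Ets1/2* carries its signal to the ANP genes. Ephrin ligands such as *Efna.d* sit in the membrane of a neighbour, act through Eph receptors and dampen the same cascade, so that ephrin and FGF set opposite inputs to MapK. *Elk* belongs to the branch of the Ets family that in mammals acts with serum response factor at MapK target genes.

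Reads assigned to genes numbered 52.6 to 71.2 M in *Lhx3/4* libraries and 58.3 to 68.9 M in control libraries. Levels are given as CPM (reads per M gene reads) after TMM scaling, a scaling that allows for unequal library composition, with factors of 0.97 to 1.06. They were not divided by gene length, so levels are compared between groups for 1 gene and not between genes. *Lhx3/4* itself had 541 to 644 CPM in *Lhx3/4* libraries and 30.1 to 53.2 CPM in control libraries, in the direction of the labels, although reads of the transgene and of the native gene cannot be told apart. The 3 ANP markers (*Onecut*, *Six3/6*, *Tyrp-1*) were all read in control libraries, where their summed level was 1140 to 1529 CPM. In *Lhx3/4* libraries the same sum was 54.9 to 84.7 CPM, and 3 of 3 markers fell. These markers are among the ANP genes that the paper names as most lowered in these data. Their fall was therefore known in advance, and they do not stand for all ANP genes.

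Expression of *Efna.d* and *Elk* fell in *Lhx3/4* cells, 10.06-fold and 2.58-fold. *Fgf9/16/20* was lower in every *Lhx3/4* library than in every control library, 1.597-fold on average, but was called in only some of the fits. *Ets1/2* and *Fgf8/17/18* had lower means with overlapping groups. The EPHA3 homolog was read in all *Lhx3/4* libraries and almost not at all in control libraries. In edgeR's quasi-likelihood test, adjusted over 13641 genes, a call required a p under 0.05 after adjustment together with a shift of 0.58 or more on the log2 scale, up or down. All 6 genes passed the minimum of 100 reads over the 6 libraries, the EPHA3 homolog through its *Lhx3/4* libraries alone. By this rule 2 of the 6 were called down, where 2.92% of all tested genes were, and 1, the EPHA3 homolog, was called up, where 1.85% of all tested genes were. The 3 others were not called, and 4.77% of all tested genes were called in one direction or the other. The log2 fold changes were negative for 5 of the 6, with a median of -1.02, while over all tested genes 48.6% were negative and the median was 0.01. The groups did not overlap for 3 genes that were lower and for 1 that was higher, against 10.6% and 10.9% of all tested genes, or 21.5% for both directions together. The homolog of EPHA3 and *Elk* were included with their own change already known. All 6 genes were chosen with earlier results of these data known. These counts therefore describe the set and were not read as evidence about the pathway. RNA was taken from bulk sorted cells, in which fewer cells that express a gene and less RNA in each cell cannot be told apart.

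**Figure D1:**
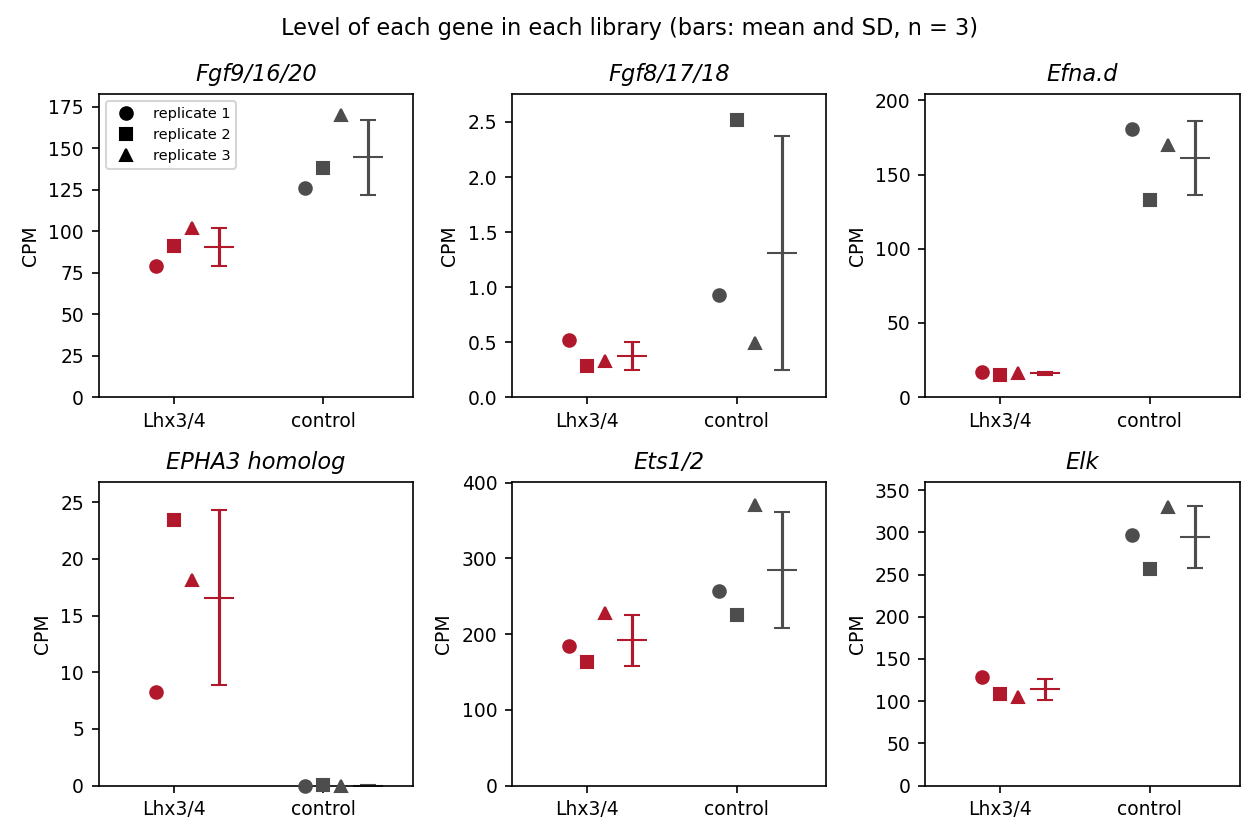
Level of each of the 6 genes in CPM (linear axes that start at 0) in the 3 *Lhx3/4* libraries (red) and the 3 control libraries (grey), with the symbol giving the replicate number and the bar the mean and SD. *Efna.d* stood at 14.6 to 17.1 CPM in *Lhx3/4* libraries, against 133 to 181 CPM in control libraries, while *Fgf8/17/18* and *Ets1/2* had overlapping groups.

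Among the FGF ligands, *Fgf9/16/20* had 78.9, 91.0 and 102 CPM in *Lhx3/4* replicates 1, 2 and 3, against 126, 138 and 170 CPM in control replicates 1, 2 and 3. These are 4389, 6207 and 7415 reads in *Lhx3/4* libraries and 7343, 8359 and 11368 reads in control libraries. The highest *Lhx3/4* library lay below the lowest control library, and in both groups replicate 1 was lowest and replicate 3 highest. The means were 90.6 ± 11.489 CPM in *Lhx3/4* cells and 145 ± 22.6 CPM in control cells (SD, n = 3 each). The log2 fold change was -0.68 (SE 0.16, 95% interval -1.06 to -0.29), and the edgeR test without a block did not call it (adjusted p = 0.0695). With the replicate number as a block the log2 fold change was -0.67 and the gene was called down (edgeR, adjusted p = 0.00309), as it was by DESeq2 (adjusted p = 0.00568). Libraries of the same number differed by -0.67, -0.60 and -0.74 on the log2 scale, a narrower range than the levels within either group. With the block, 3 of the 6 genes were called down, where 6.94% of all tested genes were, and 1 was called up, where 4.72% were. Every one of the 650 genes called without the block was also among the 1591 called with it.

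The other ligand, *Fgf8/17/18*, which ascidian embryos use in later patterning of the nervous system, was close to the floor of the measurement. It had 0.52, 0.28 and 0.33 CPM in *Lhx3/4* replicates 1, 2 and 3 (29, 19 and 24 reads), against 0.93, 2.51 and 0.49 CPM in control replicates 1, 2 and 3 (54, 152 and 33 reads). Control replicate 2 stood apart from all other libraries, and control replicate 3 lay below *Lhx3/4* replicate 1. The counting interval for the 152 reads of control replicate 2 was 129 to 178 (95%, exact Poisson) and that for the 33 reads of control replicate 3 was 22.7 to 46.3, in libraries of 62.6 and 68.9 M gene reads. The spread between the control libraries is therefore not accounted for by counting alone. The mean level was 0.38 ± 0.13 CPM in *Lhx3/4* cells and 1.31 ± 1.06 CPM in control cells (SD, n = 3 each). The log2 fold change of -1.80 (SE 0.77, 95% interval -3.59 to -0.01) was not called (edgeR, adjusted p = 0.313). Without control replicate 2 it was -0.91 (adjusted p = 0.796), so 1 library carried much of the difference between the means.

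For the ephrin ligand, *Efna.d*, CPM were 17.1, 14.6 and 16.3 in *Lhx3/4* replicates 1, 2 and 3, against 181, 133 and 170 in control replicates 1, 2 and 3. The *Lhx3/4* libraries held 949, 999 and 1188 reads and the control libraries 10531, 8030 and 11375. The libraries of each group lay close together and the groups were far apart. Means of 16.01 ± 1.24 CPM in *Lhx3/4* cells and 161 ± 25.1 CPM in control cells (SD, n = 3 each) gave a 10.06-fold fall (95% interval 7.62 to 13.3). The log2 fold change was -3.33 (SE 0.17, edgeR adjusted p = 2.05e-04), which ranked 137 among the falls of all tested genes, and *Efna.d* was called down in every fit that was run. Same-numbered libraries differed by -3.40, -3.18 and -3.38 on the log2 scale. The ANP marker *Six3/6*, a homeobox gene of the anterior neural plate, had a fitted log2 fold change of the same size (-3.33), and that of *Onecut*, another ANP transcription factor, was -4.31. The summed level of the 3 ANP markers, chosen with their fall known, was also lower in *Lhx3/4* libraries than in control libraries. Within each group this sum did not follow the order of *Efna.d* over the libraries, and its part in the fall was not tested.

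The receptor, the EPHA3 homolog, showed the opposite direction. Human EPHA3 is a receptor tyrosine kinase for A-type ephrins, the class to which *Efna.d* belongs. Its gene had 459, 1598 and 1318 reads in *Lhx3/4* replicates 1, 2 and 3 (8.253, 23.4 and 18.1 CPM), against 0, 1 and 0 reads in control replicates 1, 2 and 3. All *Lhx3/4* libraries were above all control libraries, and *Lhx3/4* replicate 1 had less than the other two. The sums of 3375 reads in *Lhx3/4* libraries and 1 read in control libraries gave a ratio per gene read of 3190, with a 95% counting interval of 572 to 126000 (exact binomial) that covers counting error only. It was chosen with this rise known, so its values and its place among the called genes are a description and no p is given. The summed level of the 3 cardiopharyngeal markers (*Foxf*, *Hand.r*, *Irxb*) was 216 to 298 CPM in *Lhx3/4* libraries and 37.5 to 82.0 CPM in control libraries, and 2 of 3 were called up, or 3 of 3 with the replicate block (*Hand.r*, edgeR adjusted p = 0.0201 with it and 0.173 without). The summed level of the 2 motor ganglion markers (*Nkx6*, *Vsx*) was 9.19 to 25.8 CPM in *Lhx3/4* libraries and 1.54 to 3.24 CPM in control libraries, with *Vsx* at 0 reads in control replicate 3. Of these 2 markers, 1 was called up without the block and both with it (*Vsx*, edgeR adjusted p = 0.0228 with it and 0.0544 without). Both sums were higher in *Lhx3/4* than in control libraries, as was the EPHA3 homolog. Among *Lhx3/4* libraries the cardiopharyngeal sum was lowest in replicate 3, whereas the EPHA3 homolog was lowest in replicate 1. The motor ganglion sum had the same order as the EPHA3 homolog there. The part of these cell types in the rise of the EPHA3 homolog was not tested. The cardiopharyngeal and motor ganglion markers were picked from genes the paper names as raised in these cells, with that rise known. Their calls are therefore not separate evidence. Of all tested genes, 1.85% were called up without the block and 4.72% with it. Of other primary cardiopharyngeal targets, the paper reports *Irxa*, *Soxh* and *Gsc* as unaffected and *Elk1*, *Foxp* and *SoxC* as lower.

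Of the transcription factors, *Elk* had 129, 108 and 105 CPM in *Lhx3/4* replicates 1, 2 and 3, against 297, 257 and 330 CPM in control replicates 1, 2 and 3. Reads numbered 7158, 7391 and 7629 in *Lhx3/4* libraries and 17301, 15547 and 22081 in control libraries. The highest *Lhx3/4* library was far below the lowest control library. The means of 114 ± 12.9 CPM in *Lhx3/4* cells and 295 ± 36.4 CPM in control cells (SD, n = 3 each) differed 2.58-fold (95% interval 2.02 to 3.31), with a log2 fold change of -1.37 (SE 0.15, edgeR adjusted p = 0.00307). *Elk* was called down in every fit. It was included with its fall already known, so its p and calls describe the gene and are not separate evidence. Libraries of the same number differed by -1.21, -1.25 and -1.65 on the log2 scale.

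*Ets1/2*, the effector of FGF in both the ANP and the cardiopharyngeal lineage, had 184, 163 and 228 CPM in *Lhx3/4* replicates 1, 2 and 3, against 257, 226 and 371 CPM in control replicates 1, 2 and 3. Its reads numbered 10243, 11101 and 16610 in *Lhx3/4* libraries and 14950, 13639 and 24856 in control libraries. *Lhx3/4* replicate 3 lay just above control replicate 2, and replicate 3 was the highest library of both groups. The mean was 192 ± 33.4 CPM in *Lhx3/4* cells and 284 ± 76.7 CPM in control cells (SD, n = 3 each). The log2 fold change of -0.57 (SE 0.22, 95% interval -1.09 to -0.05) was not called (edgeR, adjusted p = 0.260), and without control replicate 3 it was -0.33. Same-numbered libraries differed by -0.48, -0.47 and -0.70 on the log2 scale. With the replicate number as a block the adjusted p was 0.0089 (edgeR), but the log2 fold change of -0.55 stayed short of the 0.58 that a call requires.

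**Figure D2:**
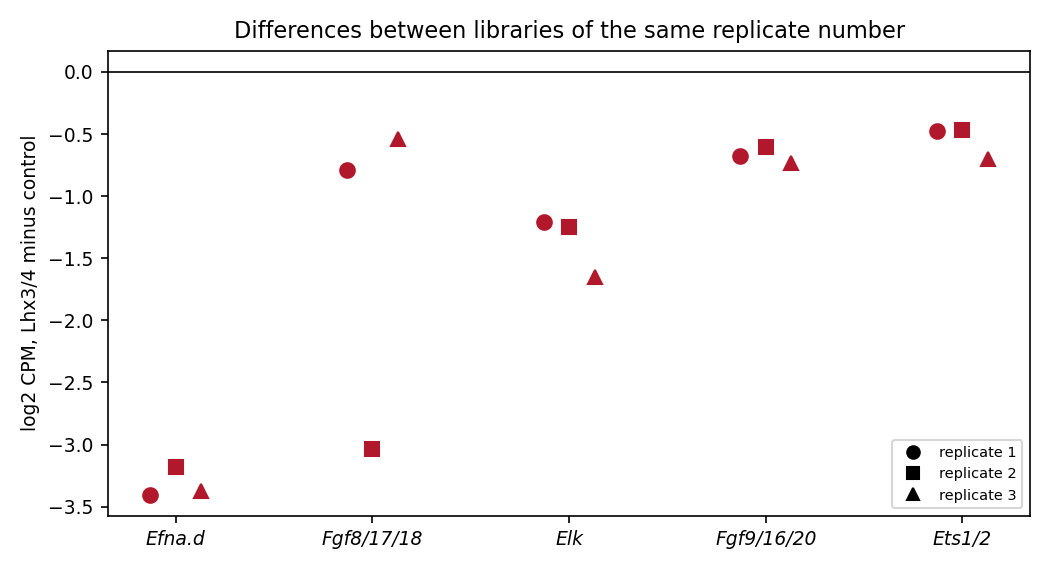
Difference in log2 CPM between the *Lhx3/4* library and the control library of the same replicate number for 5 genes (vertical axis; the horizontal line marks no difference). All 3 differences were negative for each of these 5 genes, as for 25.5% of all tested genes, and that of *Fgf8/17/18* at replicate number 2 (-3.04) stood apart from the other two of that gene (-0.79 and -0.54). The EPHA3 homolog is not drawn, and its differences were 8.04, 8.94 and 9.18 at replicate numbers 1, 2 and 3. Its control libraries held 0, 1 and 0 reads, so the size of these differences depends on the small count added before the log.

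The spread between libraries of a group differed among the genes. Pooled over both groups, the SD of log2 CPM was 0.17 for *Elk*, 0.18 for *Efna.d*, 0.20 for *Fgf9/16/20* and 0.32 for *Ets1/2*, all under the median of 0.33 over all tested genes. It was 0.87 for *Fgf8/17/18*, more than in 84.1% of all tested genes, and 0.61 for the EPHA3 homolog. The same shift in mean level is therefore read with less error for *Elk*, *Efna.d* and *Fgf9/16/20* than for the others.

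**Figure D3:**
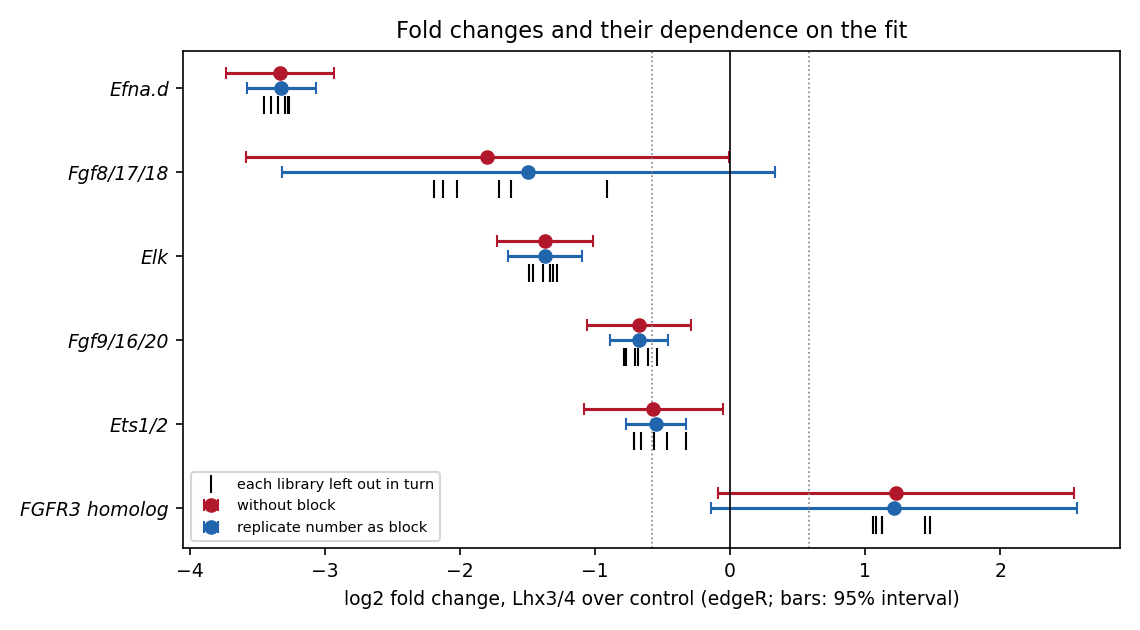
Log2 fold change of *Lhx3/4* over control cells (horizontal axis) for 5 of the genes and the FGFR3 homolog, from edgeR without a block (red) and with a block for replicate number (blue), each with its 95% interval. Black ticks give the fold change with each library left out in turn and dotted lines mark 0.58 in either direction, with *Efna.d* and *Elk* wholly beyond the line and *Fgf8/17/18* at -2.19 to -0.91 over the ticks.

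Other genes of the pathway that could be named were both receptor homologs, and both were chosen with their higher level already known. A homolog of FGFR3 (KH2012:KH.C6.281), in humans a signaling FGF receptor, had 1.46, 0.89 and 1.61 CPM in *Lhx3/4* replicates 1, 2 and 3 (81, 61 and 117 reads), against 0.46, 0.48 and 0.75 CPM in control replicates 1, 2 and 3 (27, 29 and 50 reads). The groups did not overlap, but the lowest *Lhx3/4* library was close to the highest control library. The log2 fold change of 1.22 (SE 0.57, 95% interval -0.09 to 2.54) was not called (edgeR, adjusted p = 0.360). The paper states that *C. robusta* has only 1 FGF receptor gene, and whether this homolog is that gene was not tested. A homolog of FGFRL1 (KH2012:KH.XM_018811717.1), in mammals an FGF-binding protein that lacks the kinase domain, had 38, 39 and 12 reads in *Lhx3/4* replicates 1, 2 and 3, against 0 reads in each control library. Against a floor of 3 reads over the control group it was at least 28-fold higher per gene read, and the lower 95% counting limit (exact binomial) of its ratio was 22.3. Its 89 reads in all lie under the minimum of 100, so it was not tested in the main comparison. Of these 2 genes, 1 was tested by edgeR and 0 were called in either direction, where 4.77% of all tested genes were. The FGFR3 homolog had an unadjusted p of 0.0643 in this edgeR test and was not called by DESeq2 either. It was chosen with its higher level known, so its p-values describe the gene and are not separate evidence. In the fits with no minimum of reads and with edgeR's filterByExpr, the FGFRL1 homolog was not called. It enters these fits through its *Lhx3/4* libraries alone and was chosen with its rise known, so no p is given.

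Ratios of reads of 2 genes within a library do not depend on the depth or the scaling of that library. The log2 ratio of *Fgf9/16/20* to *Efna.d* was 2.21, 2.63 and 2.64 in *Lhx3/4* replicates 1, 2 and 3, against -0.52, 0.06 and -0.0009 in control replicates 1, 2 and 3. Relative to the ephrin ligand, reads of the inducing ligand were 6.27-fold higher in *Lhx3/4* libraries (log2 difference 2.65), and the groups did not overlap. Both genes were lower in *Lhx3/4* libraries (log2 fold change -0.68 for *Fgf9/16/20* and -3.33 for *Efna.d*). The ratio was higher because *Efna.d* fell more. The log2 ratio of *Elk* to *Ets1/2* was -0.52, -0.59 and -1.12 in *Lhx3/4* replicates 1, 2 and 3, against 0.21, 0.19 and -0.17 in control replicates 1, 2 and 3. The groups were again separate, with a log2 difference of -0.82, so *Elk* reads were 1.76-fold lower relative to *Ets1/2* reads.

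The log2 ratio of *Fgf8/17/18* to *Efna.d* was -5.01, -5.68 and -5.60 in *Lhx3/4* replicates 1, 2 and 3, against -7.59, -5.72 and -8.41 in control replicates 1, 2 and 3. Control replicate 2 came within 0.04 of the lowest *Lhx3/4* library, and the log2 difference was 1.81. The log2 ratio of *Fgf8/17/18* to *Fgf9/16/20* was -7.22, -8.31 and -8.24 in *Lhx3/4* replicates 1, 2 and 3, against -7.07, -5.78 and -8.41 in control replicates 1, 2 and 3, and these groups overlapped. In an exact permutation test (two-sided, 20 splits) the first 3 ratios had p = 0.1, the smallest that 3 against 3 libraries allow, and 0.133 after adjustment over the 4 ratios. The last had an exact permutation p of 0.5, before and after adjustment. This test cannot go below 0.1 with 3 libraries against 3, so no ratio could pass 0.05 in it.

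**Figure D4:**
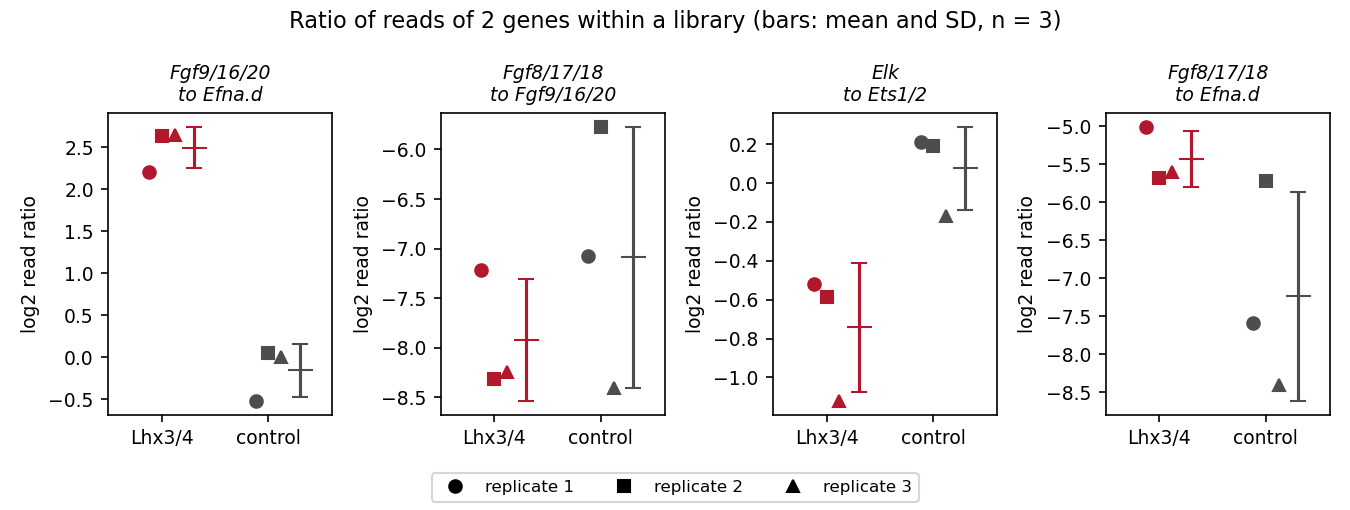
Log2 ratio of the reads of 2 genes within each library (vertical axes, different scales) for the 3 *Lhx3/4* libraries (red) and the 3 control libraries (grey), with the mean and SD as bars. The ratio of *Fgf9/16/20* to *Efna.d* was 2.21 or more in every *Lhx3/4* library and 0.06 or less in every control library.

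The gene most like each of the 6 was found among the 13640 other tested genes by the root mean square difference of log2 CPM over the 6 libraries, after the mean of each gene was subtracted. For the EPHA3 homolog this was a homolog of KLK1 (KH2012:KH.C3.547), in humans a serine protease gene, at a difference of 0.83. It had 395, 776 and 277 reads in *Lhx3/4* replicates 1, 2 and 3, against 0, 1 and 0 reads in control replicates 1, 2 and 3. For *Efna.d* it was KH2012:KH.C9.837, with a difference of 0.26 and a log2 fold change of -3.02. For *Elk* it was KH2012:KH.C8.263, with a difference of 0.09 and a log2 fold change of -1.20. The nearest gene lay at 0.27 for *Fgf8/17/18*, 0.03 for *Fgf9/16/20* and 0.07 for *Ets1/2*. Of the 13640 other genes, 6074 lay within 0.5 of *Fgf9/16/20* and 6095 within 0.5 of *Ets1/2*, so near profiles were common for these genes. Within the same distance lay 655 genes for *Elk*, 53 for *Efna.d*, 44 for *Fgf8/17/18* and 0 for the EPHA3 homolog.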

How the data were processed

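RNA of GFP-sorted ANP cells was sequenced in 3 *Lhx3/4* and 3 control libraries. The authors used HISAT2 and the ci3 assembly for alignment, and deposited raw HTSeq counts per KH2012 gene. The submitters' processing notes also name FastQC and DESeq2. Versions and strand setting were not given in the sources used here, so overlapping genes cannot be told apart by strand, and ambiguous reads (5.38% to 5.97%) stayed uncounted. The paper and the labels name different library kits. The 5 HTSeq summary lines, with 12.1% to 19.5% unaligned, were left out. The authors' table of fold changes, p-values and mean normalized counts was not used.

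Genes with at least 100 reads over 6 libraries were tested with edgeR 4.0.16 (TMM, quasi-likelihood, Benjamini-Hochberg over all tested genes) in R 4.3.3. The code was tested on simulated data. DESeq2 1.42.0, other scalings and filters, a replicate block and each library left out were alternatives. Ratios of 2 genes used log2 reads with 0.5 added (scipy 1.17.1). The Poisson and binomial intervals and the floors reflect counting error only. Intervals of fold changes come from the edgeR fit and include the spread between libraries.

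Deviations from the group means correlated at 0.55, 0.46 and 0.55 between *Lhx3/4* and control libraries of the same number, so the numbers were taken to pair libraries. The pairing comes from these values, not from the labels. Titles mark the replicates as biological, but no source used here ties a library to its own electroporation or batch of embryos. The p-values reflect the spread among these libraries.

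The 6 genes, the pathway and marker lists and the tests were chosen with earlier results of these data known. The rule for named genes was these 6 genes, receptor homologs paired with a name in the study's tables, *Lhx3/4*, the markers and the nearest profile of each gene. Of 1241 RefSeq-like IDs, 0 matched the reference table, as did 0 KH IDs. Therefore no sequence, position or gene length is given.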

Additional observations from a re-analysis of the deposited data

How the results depend on the processing

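*Efna.d* and *Elk*, the latter included with its fall known, were called down in all alternatives. Their log2 fold changes were -3.45 to -3.26 and -1.49 to -1.28 when each library was left out. *Fgf9/16/20*, not called in the main comparison (-0.68), was called down by DESeq2 (-0.69), with at least 100 reads in each library (-0.70, adjusted p = 0.0477) and with the replicate block (-0.67). Leaving out each library gave -0.79 to -0.54 for *Fgf9/16/20*, -0.71 to -0.33 for *Ets1/2*, -2.19 to -0.91 for *Fgf8/17/18* and 1.06 to 1.48 for the FGFR3 homolog, with no call. Over all tested genes, 252 were called up and 398 down, against 478 and 746 by DESeq2 and 644 and 947 with the replicate block. Leaving out each library gave 144 to 304 up and 247 to 426 down. The count up moved by over 1.5 times without *Lhx3/4* replicate 1 (165), 2 (144) or 3 (154) and without control replicate 1 (150) or 2 (161), and the count down without *Lhx3/4* replicate 3 (262) or control replicate 2 (247). The genes called down among the 6 were 2 or 3 in all alternatives. With at least 100 reads in each library, 4 of the 6 were tested and 0 were called up, since the EPHA3 homolog and *Fgf8/17/18* have libraries under that minimum. Besides *Fgf9/16/20*, the block changed the calls of the markers *Hand.r* and *Vsx*, both called up, and no other call among the named genes it tested. The 4 ratios moved by less than the spread between libraries with 1 read added in place of 0.5, within same-numbered pairs and with each library left out. The difference of *Fgf8/17/18* to *Efna.d* (1.81) was 2.57 without control replicate 2 and 1.23 without control replicate 3, and that of *Fgf8/17/18* to *Fgf9/16/20* (-0.84) was -0.18 and -1.50 without the same libraries. Total reads without normalization factors, an alternative chosen after the values were seen, shifted the median of all genes by 0.06 on the log2 scale and changed no call of the 6 genes. *Fgf8/17/18* rests on 19 to 29 reads in *Lhx3/4* libraries and 33 to 152 in control libraries, and the SD of its log2 CPM was 0.43 in *Lhx3/4* libraries and 1.15 in control libraries.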
